A study of Mus musculus with 8 samples.

Results

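Collagen chains are the subject here: every gene of the deposited count table whose symbol reads Col, a number, the letter a and a number. The table has 44 such rows among 41730. The symbol alone decided which rows were taken. They were sorted by class into 11 fibrillar chains, 6 basement membrane chains of type IV and 27 other chains. This choice and the gene lists used below were made with earlier results of these data known. The libraries came from hanging-drop spheroids of 4T1, a mouse mammary carcinoma line, grown in DMEM with serum. The 4 shCtrl libraries came from cells that a lentivirus had given a scrambled hairpin RNA, and the 4 shTlr7 libraries from cells given a hairpin directed at Tlr7, a receptor for single-stranded RNA in endosomes. All 8 are of 1 cell line, and 1 targeting hairpin is named. The comparison asks which collagen transcripts differ once that hairpin is present.

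Collagens are the main structural proteins of the extracellular matrix. A collagen molecule is a rope of alpha chains, built of the same chain or of partner chains. A cell needs transcripts of each partner only for molecules that are made of partner chains. Fibrillar collagens form tensile fibrils, type IV forms the sheet of basement membranes on which epithelia rest, and the other types link, coat or anchor these structures or span the cell membrane. In breast carcinoma, fibroblasts of the stroma are known as the main source of fibrillar collagen, whereas carcinoma cells can make basement membrane chains themselves.

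Library totals ran from 18111623 to 93787535 counts. Reads of Tlr7 itself numbered 2, 3, 2 and 2 across the shCtrl replicates, in order, and 0, 4, 3 and 0 across the shTlr7 replicates, so these counts cannot show whether the hairpin lowered it. Markers of carcinoma epithelium summed to between 4279 and 4509 CPM (counts-per-million, TMM-scaled) in shCtrl and between 3788 and 4169 in shTlr7. Of these 8 markers, 7 were tested, with 3 higher and 3 lower in shTlr7, and Cldn7 had 0 counts. The largest change on the log2 scale was that of Krt14, from 36.2 CPM in shCtrl to 3.26 CPM in shTlr7. Of 8 fibroblast markers, Thy1 and Dpt had 0 counts in every library, Pdgfrb had 1 count in all and Lum 2. The list summed to between 42.6 and 44.0 CPM in shCtrl and between 43.4 and 48.8 in shTlr7, nearly all of it Pdgfra. One fibroblast marker, Fap, rose from 0.359 CPM in shCtrl to 2.01 CPM in shTlr7. Pi16 went the other way, from 0.675 to 0.187 CPM, as did Dcn, from 0.0618 to 0.0231 CPM, and neither had counts enough to be tested. The part of these markers in the collagen results was not tested. Of 6 macrophage markers, Adgre1, Lyz2 and C1qa had 0 counts, Cd68 rose and Csf1r fell, and the list summed to between 23.1 and 28.1 CPM in shCtrl and between 31.2 and 44.2 in shTlr7, whose part was not tested either. The 6 endothelial markers summed to at most 0.643 CPM. In bulk RNA, fewer cells that make a transcript and less of it per cell cannot be told apart. Whether replicates were grown separately is not in the labels, and the p-values therefore reflect how far these samples spread, possibly for technical reasons.

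Start regions are shown for the partner chains of types VI and VIII, which were picked with their values known. Col6a1 and Col6a2 encode partner chains of type VI, and Col8a1 and Col8a2 those of type VIII. The sequences are from RefSeq on GRCm38.p6, which had a start window for 35 of the 44 chains. Each is a stretch of 120 bases ahead of the transcript start, on the strand of the gene, and free of exons of the GENCODE M21 annotation. That of Col6a1 lies 244 to 125 bases ahead of the start, whereas those of Col6a2 and Col8a1 end 1 base and that of Col8a2 2 bases ahead of it. Capitals mark the GC box GGGCGG on either strand. The windows lie at chr10:76726169-76726288 for Col6a1, chr10:76623631-76623750 for Col6a2, chr16:57754738-57754857 for Col8a1 (all 3 on the minus strand) and chr4:126286673-126286792 for Col8a2 (plus strand).
Col6a1: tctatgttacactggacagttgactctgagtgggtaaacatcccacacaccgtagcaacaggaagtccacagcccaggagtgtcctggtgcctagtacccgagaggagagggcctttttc
Col6a2: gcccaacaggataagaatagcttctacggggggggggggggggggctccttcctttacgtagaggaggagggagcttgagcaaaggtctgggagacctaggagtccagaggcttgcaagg
Col8a1: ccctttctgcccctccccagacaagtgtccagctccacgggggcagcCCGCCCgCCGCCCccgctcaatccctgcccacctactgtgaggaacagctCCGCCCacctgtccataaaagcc
Col8a2: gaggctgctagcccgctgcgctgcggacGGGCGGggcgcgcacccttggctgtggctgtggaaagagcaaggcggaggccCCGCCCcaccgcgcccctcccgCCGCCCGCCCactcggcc

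The type VIII stretches held 3 and 4 GC boxes, and the type VI stretches held none. The choice of stretch bears on this: the 2 whole windows of Col6a2 held 3 and 1, that of Col6a1 held 0, and those of Col8a1 and Col8a2 held 4 each. Over the whole 300-base windows, which reach 250 bases ahead of the start and 50 bases into the transcript, 23 of 38 collagen windows (60.5%) had a GC box, against 35.7% of 32851 windows of the same length in the table. Some chains have more than 1 window. The CCAAT box, spelled CCAAT, was found in 13 collagen windows (34.2%, against 37.4% of all windows). The TATA box, spelled TATAAA, was in 5 (13.2%, against 13.6%). The AP-1 site, spelled TGANTCA, was in 1 (2.63%, against 7.81%), that of Col6a1 and outside the stretch shown. Both strands were searched, and a match is a description of letters only.

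Type IV genes lie head to head. The starts of Col4a1 and Col4a2 overlap by 22 bases at chr8:11312805-11312826, shown on the plus strand because transcripts of both genes begin there.
Col4a1 and Col4a2: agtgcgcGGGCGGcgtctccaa

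The spheroids expressed a narrow part of the collagen family. Of 44 chains, 5 had 0 counts in all 8 libraries: the fibrillar chains Col3a1, Col5a2 and Col11a1, and Col9a1 and Col19a1, which coat fibrils. A count of 0 over the summed libraries allows up to 0.0104 CPM, for counting error only. Another 16 chains, with between 1 and 78 counts over all libraries, fell short of the low-count filter. The remaining 23 chains were tested, namely 6 fibrillar, 5 type IV and 12 other chains. Of these, 20 stood above the filter's level of 0.386 CPM in all 8 libraries. Col15a1 reached it in 4 shCtrl and 0 shTlr7 libraries, Col2a1 in 1 and 4, and Col4a4 in 3 and 1, so these 3 were tested through their higher libraries.

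Levels between chains were set side by side as CPM per kilobase of the longest annotated transcript. In shCtrl, Col18a1 stood highest at 147 ± 4.92 CPM per kb (SD, n = 4), followed by Col8a1 at 119 ± 7.23, Col4a1 at 72.7 ± 1.35, Col7a1 at 71.5 ± 10.7 and Col4a2 at 58.4 ± 0.513. The levels of Col4a1 and Col7a1 differed by less than their spread. Next came Col4a5 at 27.4 ± 1.90, Col6a1 at 24.5 ± 2.38 and Col5a1 at 23.6 ± 0.581, of which Col6a1 and Col5a1 were within their spread of each other. Ninth was Col16a1 at 9.97 ± 0.323 CPM per kb if its 2 rows of the table are summed, followed by Col20a1 at 2.31 ± 0.705. The first 8 chains together held 98.2% ± 0.246 of the summed collagen level in shCtrl and 97.2% ± 0.157 in shTlr7, or 96.7% ± 0.245 and 95.2% ± 0.257 with both rows of Col16a1. Type I collagen, the main fibrillar collagen of connective tissue, was scarce, with Col1a1 at 0.375 ± 0.118 CPM per kb and Col1a2 at 12 counts in all shCtrl libraries.

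The make-up of the collagen transcripts differed between the groups. Their summed level was 558, 549, 550 and 559 CPM per kb in shCtrl replicates 1 to 4, and 392, 384, 387 and 362 in shTlr7 replicates 1 to 4. All shTlr7 libraries were therefore below all shCtrl libraries. Col8a1 made up 21.5% ± 1.43 of that sum in shCtrl and 9.40% ± 0.999 in shTlr7. The type IV chains together made up 28.7% ± 0.205 and 36.2% ± 1.07, fibrillar chains 4.54% ± 0.0758 and 4.01% ± 0.187, and other chains 66.8% ± 0.204 and 59.8% ± 1.23. These sums and shares use the plain row of Col16a1. Shares sum to the whole, so a lower share of Col8a1 raises the rest.

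**Figure D1:**
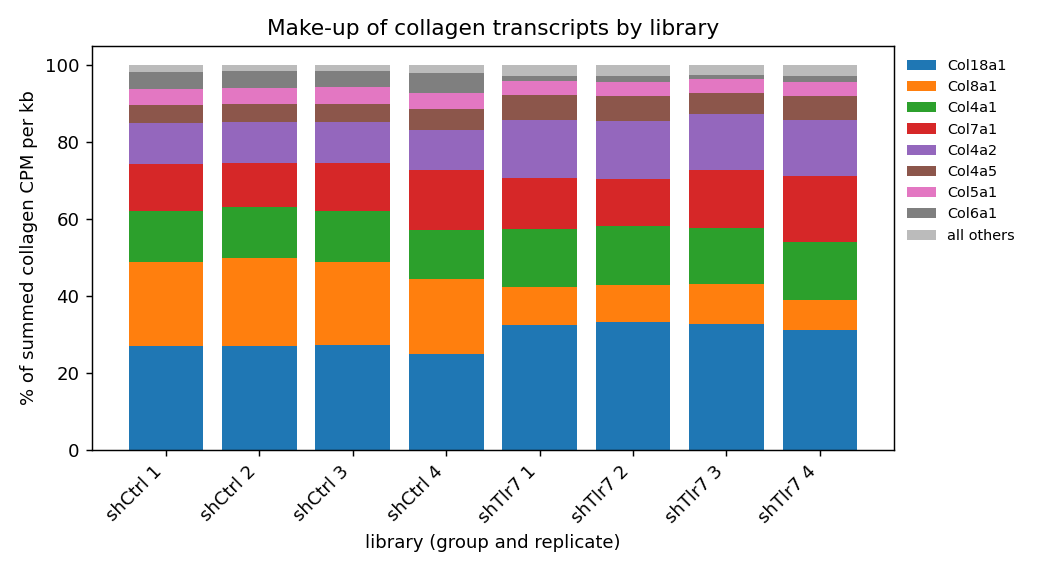
Share of each of the 8 most abundant collagen chains in the summed collagen level (CPM per kb, y axis in %) for each of the 8 libraries (x axis); grey at the top is all other chains. Col8a1 takes between 19.4% and 22.8% in the shCtrl libraries and between 8.03% and 10.4% in the shTlr7 libraries.

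More tested chains were lower than higher in shTlr7. Falls of at least 2-fold were called for Col6a1, Col6a2, Col8a1 and Col12a1, and rises of that size for Col9a3, Col20a1 and Col24a1. Of 23 tested chains, 13 were lower, 4 higher and 6 not called (edgeR quasi-likelihood test, adjusted p under 0.05). Over all 13393 genes tested, 56.1% were called, 26.8% as lower and 29.3% as higher. By class, 2 of 6 fibrillar chains were lower and 2 higher, 2 of 5 type IV chains lower and 0 higher, and 9 of 12 other chains lower and 2 higher. A called fall of at least 2-fold was found for 5 tested chains, Col15a1 included, and for 4.23% of all genes. All 5 are of the class of other chains. A called rise of at least 2-fold was found for 4 tested chains, Col2a1 included, and for 441 of the 13393 genes. The CPM of the groups did not overlap for 15 of the 23 chains, against 49.9% of all genes. The median log2 fold change was -0.40 for the tested chains and 0.011 for all genes tested. It was -0.29 for fibrillar, -0.20 for type IV and -0.66 for other chains. These counts include Col15a1 and Col2a1, which were tested only because 1 group was high enough. They also include Col4a4, which passed the filter through 3 shCtrl libraries and 1 shTlr7 library. In a count added after seeing the data, the 20 chains above the filter's level in all 8 libraries had 12 lower, 3 higher and 5 not called. Of the 12382 genes that meet the same condition, 27.1% were lower and 29.7% higher. Among those 20 chains, 4 had a called fall of at least 2-fold (3.13% of such genes) and 3 a called rise of that size (256 of the 12382 genes). Of the same 20 chains, 13 did not overlap between groups (50.5% of such genes), and 1 of 5 fibrillar chains was higher. When library size was the only scaling, the median of all genes was 0.11, and calls over all genes went from 3590 lower and 3927 higher to 2491 lower and 5513 higher. In that scaling 10 chains were lower and 4 higher. Without both libraries numbered 4, which differ most from the others of their group in counts per gene, 13 chains were again lower and 4 higher.

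**Figure D2:**
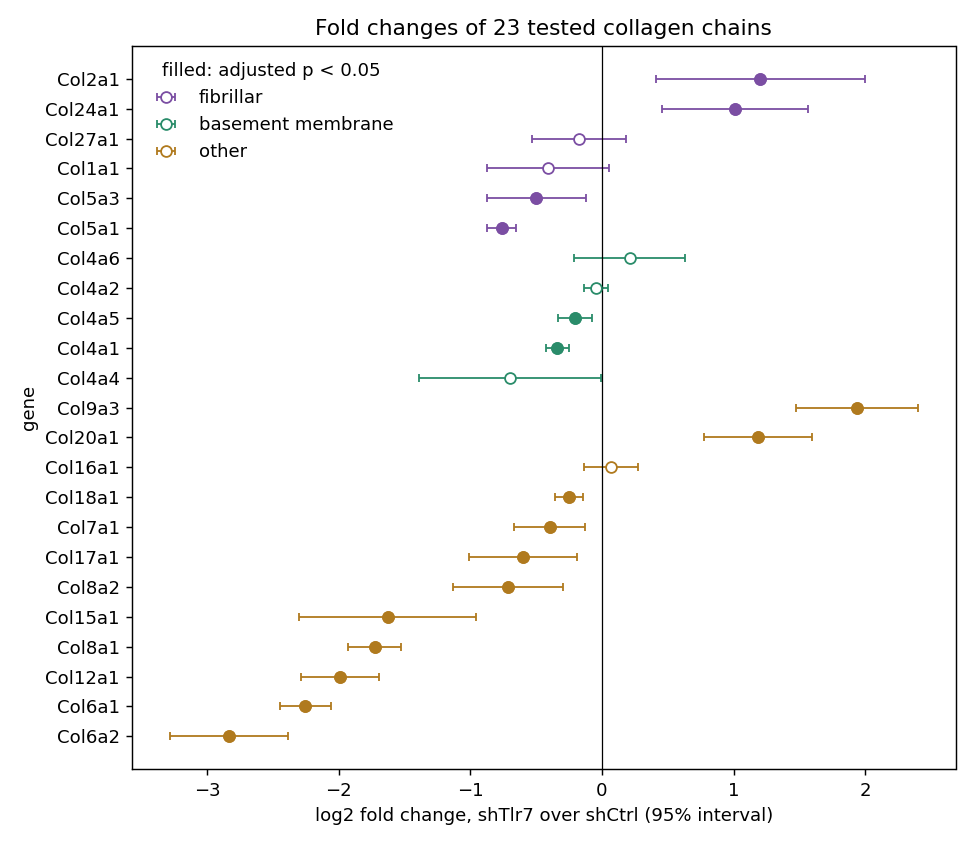
Log2 fold change of shTlr7 over shCtrl (x axis, with 95% interval) for the 23 tested collagen chains (y axis), coloured by class; filled points passed the edgeR test. Points of the other class reach from -2.83 for Col6a2 to 1.94 for Col9a3, while those of type IV lie between -0.70 and 0.21.

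Type VI collagen forms beaded filaments around cells, and Col6a2 and Col6a1 had the largest falls among the 20 chains above the filter's level in all libraries. Col6a1 had 100.3, 94.6, 93.0 and 114 CPM in shCtrl replicates 1 to 4 and 19.5, 22.997, 18.3 and 23.1 CPM in shTlr7 replicates 1 to 4. The lowest shCtrl library was thus far above the highest shTlr7 library, and the log2 fold change was -2.25 ± 0.09 (SE; edgeR adjusted p = 2.40e-09). Col6a2 had 9.43, 8.54, 9.73 and 14.4 CPM in shCtrl and 1.4995, 1.28, 1.20 and 2.08 CPM in shTlr7, again without overlap. Its log2 fold change was -2.83 ± 0.21 (SE; edgeR adjusted p = 3.53e-07), a 7.13-fold fall. The other 4 type VI chains were close to absent. Col6a3, the remaining partner of the usual type VI molecule, had 13 counts in the shCtrl and 10 in the shTlr7 libraries, and Col6a4, Col6a5 and Col6a6 had 19, 21 and 1 counts in all.

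Col6a1 and Col6a2 are neighbours on chromosome 10, with 85.2 kb between them and Col18a1 farther along. In the 571 kb from Col6a2 to Col18a1 (chromosome 10, 76595756 to 77166530, GRCm38.p6), RefSeq lists 12 genes. Of those that are not collagens, 2 passed the low-count filter, and their log2 fold changes were -0.094, which was not called, and 0.46, which was. Neither was called lower, and Col18a1, the other collagen there, fell by 0.25 on the log2 scale.

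Type VIII collagen is a short-chain network collagen of vessels and of the membrane beneath corneal endothelium. Col8a1 had 628, 638, 608 and 555 CPM in shCtrl replicates 1 to 4 and 194, 186, 206 and 149 CPM in shTlr7 replicates 1 to 4. It went from the second to the fifth place among the chains by level per kb, with a log2 fold change of -1.73 ± 0.09 (SE; edgeR adjusted p = 8.83e-08). Col8a2, its partner, was far less abundant per kb than Col8a1, with a ratio between them of 466 ± 65.1 in shCtrl and 242 ± 25.8 in shTlr7, and had 1.12 ± 0.117 CPM in shCtrl and 0.647 ± 0.0999 CPM in shTlr7, without overlap. It fell by 0.72 ± 0.19 on the log2 scale (SE; edgeR adjusted p = 0.00630). Col10a1, the remaining network chain and a marker of hypertrophic cartilage, had 16 counts in all.

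**Figure D3:**
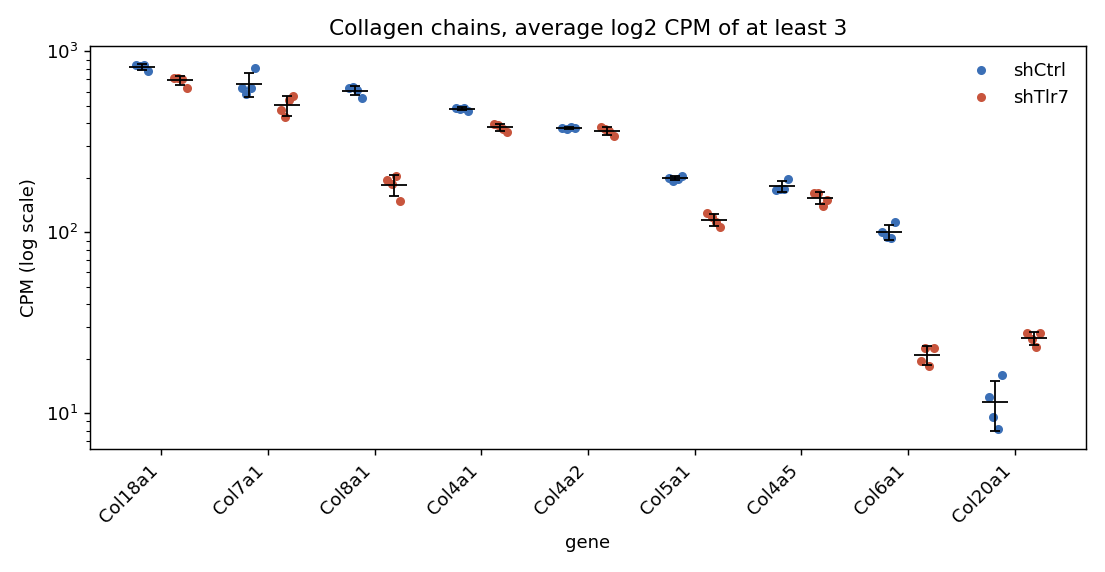
CPM (y axis, log scale) of the 9 collagen chains whose average log2 CPM was 3 or more (x axis); points are the 4 libraries of each group, and bars give mean and SD. Col8a1 and Col6a1 are set furthest below their shCtrl libraries, Col20a1 lies above, and Col4a2 overlaps.

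Type IV chains form the basement membrane sheet, and the 3 abundant ones had log2 fold changes between -0.34 and -0.045. Col4a1 had 489, 482, 485 and 469 CPM in shCtrl replicates 1 to 4 and 397, 390, 374 and 360 CPM in shTlr7 replicates 1 to 4, with no overlap. Its log2 fold change was -0.34 ± 0.04 (SE; edgeR adjusted p = 1.07e-05), a fall of 21.0%. Col4a2, which shares its start region and is its usual partner in the helix, had 376, 374, 381 and 376 CPM in shCtrl and 383, 374, 363 and 340 CPM in shTlr7, and the groups overlapped. Its log2 fold change of -0.045 had a 95% interval from -0.14 to 0.046 and was not called (edgeR adjusted p = 0.379), and its sign turned, to 0.058, where only library size was used for scaling.

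The second head-to-head pair of this class lies on the X chromosome. Col4a5, a chain of kidney and skin basement membranes, had 172, 175, 173 and 198 CPM in shCtrl replicates 1 to 4 and 165, 166, 140 and 151 CPM in shTlr7 replicates 1 to 4. The groups did not overlap, and it fell by 0.20 ± 0.06 on the log2 scale (SE; edgeR adjusted p = 0.0123), which was not called when scaled by library size alone (-0.10, edgeR adjusted p = 0.177). Col4a6 had 1.17 ± 0.114 CPM in shCtrl and 1.37 ± 0.297 CPM in shTlr7, with a log2 fold change of 0.21 that was not called (95% interval from -0.21 to 0.63). Col4a3 and Col4a4, the remaining pair, were scarce. Col4a4 had a log2 fold change of -0.70 (edgeR adjusted p = 0.0801), which passed the threshold without shTlr7 replicate 3 (-0.93, edgeR adjusted p = 0.0294). Col4a3 had 1 count in shCtrl and 22 in shTlr7 over all libraries, which is 14.4 times as many per read of library total (exact 95% interval 2.33 to 596, for counting error only). GENCODE exons of another gene overlap 5.65% of its exons.

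Ratios between partner chains were compared within each library, where scaling cancels. Col4a1 to Col4a2, per kb, stood at 1.27, 1.26, 1.24 and 1.22 in shCtrl replicates 1 to 4 and at 1.01, 1.02, 1.00 and 1.03 in shTlr7 replicates 1 to 4. The groups did not overlap, and the log2 difference of the ratio was -0.29 (exact permutation test over libraries, two-sided p = 0.0286, the smallest that 4 against 4 allows). In all 4 pairs were looked at, after their values were known, and adjustment over the 4 gave an exact permutation p = 0.0381. Col8a1 to Col8a2 differed by -0.94 and Col4a5 to Col4a6 by -0.41, each without overlap (exact permutation test, p = 0.0286 and adjusted p = 0.0381 for both). The latter had an exact permutation p = 0.0571 when any 1 shCtrl library was left out. Col6a1 to Col6a2 differed by 0.54 with a slight overlap (exact permutation test, p = 0.0571 before and after adjustment, and p = 0.0286 without shTlr7 replicate 4).

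**Figure D4:**
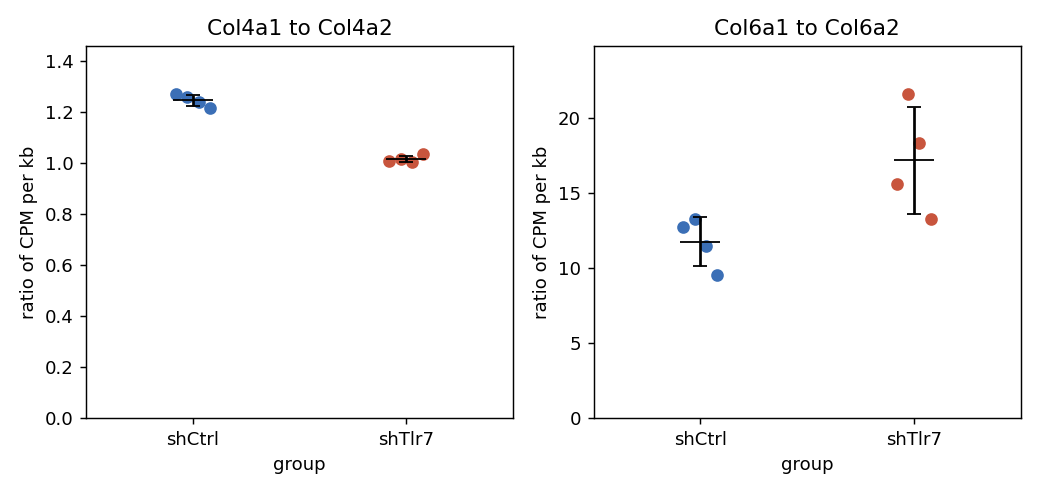
Ratio of CPM per kb (y axis, from 0) of Col4a1 to Col4a2 (left) and of Col6a1 to Col6a2 (right) in the 4 libraries of each group (points), with mean and SD (bars). The Col4a1 to Col4a2 ratio is between 1.22 and 1.27 in shCtrl and between 1.00 and 1.03 in shTlr7.

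Outside type IV, the basement membrane zone chains Col18a1, Col15a1, Col7a1 and Col17a1 were called lower. So were 2 of 5 type IV chains and 26.8% of all genes tested. Col18a1, a proteoglycan collagen of basement membranes whose end fragment is endostatin, had 839, 830, 836 and 781 CPM in shCtrl replicates 1 to 4 and 715, 715, 707 and 629 CPM in shTlr7 replicates 1 to 4. It remained the most abundant chain per kb in both groups, and its log2 fold change was -0.25 ± 0.05 (SE; edgeR adjusted p = 6.90e-04). Col15a1, its closest relative, had 1.29, 0.688, 0.662 and 0.574 CPM in shCtrl and 0.161, 0.299, 0.200 and 0.235 CPM in shTlr7. It fell by 1.63 ± 0.31 on the log2 scale (SE; edgeR adjusted p = 5.73e-04) from a level so low that it passed the filter through its shCtrl libraries alone, so the test of it supports nothing further.

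Col7a1 encodes the anchoring fibril that ties the basement membrane of skin to the dermis. It had 631, 583, 625 and 807 CPM in shCtrl replicates 1 to 4 and 473, 432, 536 and 568 CPM in shTlr7 replicates 1 to 4, so the groups were separate but wide. The log2 fold change was -0.40 ± 0.12 (SE; edgeR adjusted p = 0.0198). It did not pass the threshold without shTlr7 replicate 1 (edgeR adjusted p = 0.0507), with library size alone (0.0717) or with no filter on low counts (0.0699). Col17a1, the membrane-spanning collagen of hemidesmosomes, fell by 0.60 ± 0.19 on the log2 scale (SE; edgeR adjusted p = 0.0161), with overlapping groups at 2.34 ± 0.575 and 1.56 ± 0.246 CPM. Leaving out shCtrl replicate 2 or shTlr7 replicate 2 ended that call (edgeR adjusted p = 0.0837 and 0.0540).

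Of 6 tested fibrillar chains, 2 were lower and 2 higher, against 26.8% and 29.3% of all genes tested. Among the 5 above the filter's level in all libraries, 2 were lower and 1 higher (27.1% and 29.7% of such genes). Col5a1, a chain that seeds and limits fibrils, was the only fibrillar chain above an average log2 CPM of 3. It had 199, 193, 198 and 205 CPM in shCtrl replicates 1 to 4 and 127, 121, 113 and 107 CPM in shTlr7 replicates 1 to 4. All shTlr7 libraries were below all shCtrl libraries, and the log2 fold change was -0.76 ± 0.05 (SE; edgeR adjusted p = 4.21e-08). Exons of other genes overlap 2.50% of its exons. Its usual partner Col5a2 had 0 counts throughout. Col5a3, the remaining chain of that type, fell by 0.50 ± 0.18 on the log2 scale (SE; edgeR adjusted p = 0.0275) with overlapping groups. That call was lost without shCtrl replicate 2 (0.103), shCtrl replicate 3 (0.0754), shTlr7 replicate 2 (0.0850) or shTlr7 replicate 4 (0.0585), all edgeR adjusted p. Scaling by library size alone ended it too (-0.39, edgeR adjusted p = 0.0668), and in all 8 of 21 alternatives did so.

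The fibrillar chains that rose were scarce. Col24a1, which is known from developing bone, had 0.862, 0.567, 0.560 and 0.795 CPM in shCtrl replicates 1 to 4 and 2.20, 1.22, 1.08 and 1.28 CPM in shTlr7 replicates 1 to 4. The groups did not overlap, and it rose by 1.01 ± 0.26 on the log2 scale (SE; edgeR adjusted p = 0.00445). Col2a1, the main collagen of cartilage, was counted 1, 8, 4 and 10 times in shCtrl and 10, 47, 17 and 14 times in shTlr7, which is 0.0539, 0.162, 0.204 and 0.442 CPM against 0.536, 0.485, 0.485 and 0.470 CPM. Its log2 fold change was 1.20 ± 0.37 (SE; edgeR adjusted p = 0.0133), and it was not called without shCtrl replicate 2 (0.98, edgeR adjusted p = 0.0760). It passed the filter through its shTlr7 libraries, so that a rise was built into its being tested. Col1a1 had a log2 fold change of -0.41 (95% interval from -0.87 to 0.056) and Col27a1, a cartilage chain, of -0.17 (from -0.53 to 0.19), and neither was called. Col1a2, the partner of Col1a1, had 4, 5, 2 and 1 counts in shCtrl and 0 in every shTlr7 library. Its pooled level in shCtrl was 0.105 CPM. The ratio of its shTlr7 to its shCtrl counts, scaled by library totals, had an exact 95% interval from 0 to 0.236, for counting error only.

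Among 4 tested chains that coat fibrils or are related to these, 1 was lower and 2 higher, against 26.8% and 29.3% of all genes tested. Col12a1, which bridges fibrils in tendon and in tumour stroma, had 12.0, 10.8, 9.99 and 15.1 CPM in shCtrl replicates 1 to 4 and 3.48, 3.16, 2.51 and 2.95 CPM in shTlr7 replicates 1 to 4. It fell by 1.99 ± 0.14 on the log2 scale, without overlap (SE; edgeR adjusted p = 7.69e-08). Col20a1, a related chain, had 12.3, 9.53, 8.20 and 16.2 CPM in shCtrl and 27.8, 25.9, 23.1 and 27.6 CPM in shTlr7. All shTlr7 libraries were above all shCtrl libraries, and it rose by 1.18 ± 0.18 on the log2 scale (SE; edgeR adjusted p = 4.80e-04). Col9a3, a chain of cartilage type IX collagen, had 0.916, 0.688, 0.459 and 0.971 CPM in shCtrl and 2.46, 3.50, 2.85 and 2.38 CPM in shTlr7. It had the largest rise among the tested chains, at 1.94 ± 0.21 on the log2 scale (SE; edgeR adjusted p = 5.21e-06). Exons of the gene Tcfl5 overlap 6.07% of its exons. Its partners did not accompany it: Col9a1 had 0 counts, and Col9a2 had 8 in shCtrl and 11 in shTlr7.

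Col16a1, which is found near fibrils and basement membranes, has its reads in 2 rows of the table, a plain one and one whose symbol ends in _1. The plain row had 7.61 ± 0.391 CPM in shCtrl and 7.93 ± 0.853 CPM in shTlr7 and was not called, with a log2 fold change of 0.069. The suffixed row held 12979 of the counts against 2305 in the plain row, and its log2 fold change was -0.020 (edgeR adjusted p = 0.797). With both rows summed, Col16a1 had 50.01, 51.0, 53.6 and 53.0 CPM in shCtrl replicates 1 to 4 and 53.9, 56.4, 48.2 and 47.5 CPM in shTlr7 replicates 1 to 4, and a log2 fold change of -0.013 ± 0.06 (SE; edgeR adjusted p = 0.865). The sign thus turns, and no change was detected either way. The suffixed rows of Col4a6 and Col11a2 had 0 counts.

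**Figure D5:**
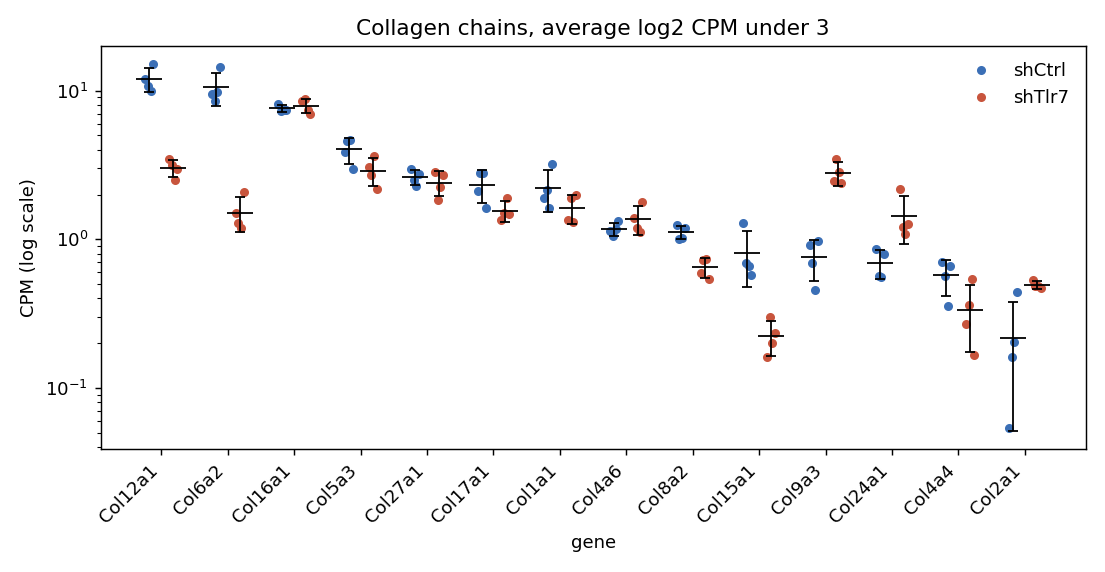
CPM (y axis, log scale) of the 14 tested collagen chains with an average log2 CPM under 3 (x axis); points are the 4 libraries of each group, and bars give mean and SD. Col12a1, Col6a2 and Col8a2 lie lower in shTlr7 without overlap, and Col9a3 and Col24a1 lie higher. Col15a1, lower, and Col2a1, higher, passed the filter through their higher group, so their separation supports nothing further.

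Some chains below the filter were called once it was lifted, in a fit that called 3651 of 24860 genes as lower and 4433 as higher. Without it, edgeR called Col1a2 as lower (adjusted p = 1.28e-04), and Col4a3 (0.00309), Col23a1 (0.00447) and Col28a1 (0.0389) as higher. Col23a1, a membrane-spanning chain, had 14 counts in shCtrl and 64 in shTlr7, which scaled to a ratio of 3.00 (exact 95% interval 1.67 to 5.80). Col28a1 had 5 and 28 counts, a ratio of 3.68 (from 1.40 to 12.2). Col14a1, a chain of the fibril surface, had 14 and 36 counts, a ratio of 1.69 whose interval from 0.888 to 3.39 includes no change. Col11a2 had 0 counts in shCtrl and 6 in shTlr7 and was not called (adjusted p = 0.0724). Col22a1, Col25a1, Col26a1 and Col13a1 had at most 4 counts each. Ratios are scaled by library totals and cover counting error only.

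Collagen also depends on enzymes, chaperones, receptors and proteases, of which 62 genes were listed and 41 tested. The list was drawn up with earlier results of these data known, so its shares of calls are a description only. The test called 23 of these as lower and 11 as higher, against 26.8% and 29.3% of all genes, and their median was -0.24 on the log2 scale, beside 0.011 for all genes. Without Loxl1, which did not reach the filter's level in every shTlr7 library, 22 of 40 were lower and 11 higher. All 4 tested genes of propeptide removal were lower, with Pcolce, an enhancer of procollagen cleavage, going from 139 ± 3.94 to 53.3 ± 2.63 CPM. Adamts14, a procollagen protease, had a log2 fold change of -1.10. Of 4 cross-linking enzymes, 3 were lower, among them the lysyl oxidases Loxl3 at -1.77 and Loxl1 at -2.70. Loxl1 was tested because its shCtrl libraries were high enough. Loxl4, chosen after its values were seen, was higher at 0.83. Calls in chain modification and folding went in both directions. Of 13 modifying genes 6 were lower and 3 higher, with the prolyl isomerase Ppib at -0.66, and of 8 folding and export genes 2 were lower and 4 higher, with the export factor Mia2 at 0.44.

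Collagen receptors of the same list moved in both directions, and all 7 tested were called, against 56.1% of all genes. As for the whole list, this share and that of the cleaving enzymes below are a description only. Itga2, a subunit of a collagen-binding integrin, fell from 287 ± 13.4 to 138 ± 11.9 CPM. Mrc2, an endocytic receptor that takes up collagen, rose from 0.922 ± 0.514 to 2.14 ± 0.114 CPM, or by 1.18 on the log2 scale. In all 4 receptors were lower and 3 higher. Of 4 collagen-cleaving enzymes tested, 3 were lower, namely Mmp9 at -2.97, Mmp13 at -3.23 and Mmp14 at -1.14, against 26.8% of all genes. Fibronectin (Fn1), on which collagen fibrils assemble, was the only tested gene of 7 fibril-associated proteins and fell by 1.46 on the log2 scale. The small proteoglycans Dcn, Bgn, Fmod, Lum and Kera were not tested for lack of counts.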

How the data were processed

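Deposited by the authors was a single table of raw read counts, genes in rows and the 8 libraries in columns. Per the submitters' processing notes, STAR 2.7.5, DESeq2 1.32.0 and GRCm38 were used, with no roles stated. How reads were counted, on which strand and with which annotation is not given in the sources used here. Reads of overlapping or antisense genes therefore cannot be told apart. Members and gene lists were chosen with earlier results of these data known.

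The fit used edgeR 4.0.16 in R 4.3.3, with filterByExpr (13393 of 41730 rows kept), TMM scaling and the robust quasi-likelihood test of group alone. P-values were adjusted by Benjamini-Hochberg over all genes tested, and a gene is called at an adjusted p under 0.05. Each standard error is the absolute log2 fold change over the root of F. CPM use TMM-scaled totals, and lengths are of GENCODE M21 transcripts. The steps were tested on simulated data. Depth was 18111623 to 93787535 counts per library. Alternatives were other scalings, DESeq2 1.42.0, limma-voom 3.58.1, other filters and thresholds, glmTreat, a replicate block, left-out libraries, summed copies, thinned counts, another class definition and exon-union lengths. All pairs of libraries within a group differed beyond sampling noise (chi-square per degree of freedom from 2.18 to 22.5).

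Tested chains are named with their fold change, and with values per library where the average log2 CPM is at least 3 or a called change reaches 1 on the log2 scale. Genes of the wider collagen list are named where a called change reaches 1 on the log2 scale or where they have the lowest p of their group. Chains and genes with values beyond that were chosen after their values were seen.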

Additional observations from a re-analysis of the deposited data

Results flagged for a closer look

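In 5 of 46 groups of 4 libraries (23 tested chains in each group), 1 library stood far from the other 3, measured by its gap over the range of the group. Chance flags about 1 in 20 such groups. Col18a1 was lowest in replicate 4 of both groups: 781 CPM in shCtrl, where the others lay between 830 and 839, and 629 CPM in shTlr7, where the others lay between 707 and 715. Col4a5 was highest in shCtrl replicate 4, at 198 CPM against 172 to 175. Col16a1 had 8.19 CPM in shCtrl replicate 1 against 7.35 to 7.46 in the others, and Col15a1 had 1.29 CPM in that library against 0.574 to 0.688.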

How the results depend on the processing

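Col6a1, Col6a2, Col8a1, Col12a1, Col5a1, Col20a1 and Col9a3 kept direction and call under all 21 alternatives each. Col2a1 lost its call in 3 of 19. With main counts of 13 lower and 4 higher chains, leaving out single libraries gave 11 to 14 lower and 3 to 4 higher, and among fibrillar chains 1 to 2 lower and 1 to 2 higher. Fibrillar and type IV chains called lower came to 1 each with library size only. Without a low-count filter 7 chains were higher, 1 of them of type IV and 4 other chains. A minimum of 1 CPM left 1 higher fibrillar chain. At an adjusted p under 0.01, 1 fibrillar chain was lower, 1 higher and 1 type IV chain lower, and thinned counts gave 1 lower and 1 higher fibrillar chain. Tested against a fold of 1.5, calls fell to 666 lower and 472 higher genes, 6 lower and 2 higher chains (fibrillar 1 and 0, type IV 0 lower, other 5 lower) and 10 lower and 2 higher genes of the wider collagen list. With Col7a1, Col15a1, Col17a1 and Col18a1 counted as basement membrane, 6 of that class and 5 other chains were lower. The cause of these shifts was not tested, beyond what each setting removes. Reversals were limited to Col4a2 with library size only (0.058) and Col16a1 with copies summed (-0.013), neither called. With lengths taken over the union of exons, levels in shCtrl were 117 CPM per kb for Col18a1, 77.5 for Col8a1, 64.5 for Col4a1 and 56.9 for Col4a2.

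The labels do not say that replicate numbers pair samples. Deviations of samples with the same number correlated at -0.0068, 0.114, 0.118 and 0.380 for replicates 1 to 4, and not every sample correlated best with its own number. With the number as a block, calls were 4005 lower and 4334 higher genes and 14 lower and 4 higher chains, Col1a1 being the added one (-0.38, edgeR adjusted p = 0.0375). Depth limits the scarce chains.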
